A study of Drosophila melanogaster with 4 samples.

Results

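Complex I, the NADH:ubiquinone oxidoreductase, is the largest enzyme of the respiratory chain and the main point at which electrons from NADH enter it. Its matrix arm oxidises NADH at a flavin and passes the electrons along iron-sulfur clusters to ubiquinone, and its membrane arm pumps protons. The pumping core is encoded in the mitochondrial genome, while the electron-carrying core and all accessory subunits are encoded in the nucleus, made in the cytosol and imported. Manganese is not a cofactor of complex I, but the superoxide dismutase of the same compartment carries it, and complex I is a known source of superoxide.

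The nuclear genes of this enzyme in Drosophila melanogaster carry symbols that start with ND-, and every gene with such a symbol was taken, with the mitochondrial genes left out. This gave 40 of the 13932 genes in the table. The RNA came from guts of Oregon R-C females, a wild-type laboratory strain, raised and kept on a chemically defined food. In 1 group no manganese was added to the food and in the other 5 ppm manganese was added. Their parents, 10 females and 10 males, laid eggs on the same food for 5 days, and the daughters stayed another 5 days on fresh food before dissection. Each group has 2 libraries, called B and C after the letters in the table. Whether a diet's pair of libraries stems from separate sets of flies is not in the labels. The tests therefore weigh the diets against the spread of these libraries alone, and that spread may be technical. In whole guts, a difference in RNA per cell and a difference in the number of cells of a type cannot be told apart.

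Values are RPKM, read numbers divided by gene length and by the library's read total. From the step that 1 read makes in low values, the libraries held 24399760 to 28010950 reads. Of the gut epithelium markers, mex1, an enterocyte gene, was the highest at 266 to 317 RPKM. The lowest were lab at 3.31 to 4.34 RPKM and pros at 0.279 to 0.386 RPKM. The listed symbol esg found no match and was not analysed here. Summed over 7 gut epithelium markers, the level was 524 and 517 RPKM without manganese and 521 and 484 RPKM at 5 ppm, with 2 of 7 higher without manganese. The 13 visceral muscle genes, a mitochondria-rich tissue of the gut wall, summed to 927 and 999 RPKM without manganese, with 962 and 979 RPKM at 5 ppm, and 5 of 13 were higher. The no-manganese library C stood apart in ovary and eggshell genes. Their sum over 15 genes was 489 RPKM there and 1.63 to 5.12 RPKM in the other libraries, 12 of 15 had a higher mean without manganese, and Cp16 and Cp19 were under 0.1 RPKM throughout. Fat body genes summed to 335 and 840 RPKM without manganese and 212 and 491 RPKM at 5 ppm (5 of 7 higher). Most of that sum came from Yp1, Yp2 and Yp3, while Lsp2 and fit had lower means without manganese. Malpighian tubule genes summed to 45.4 and 51.2 against 41.8 and 43.9 RPKM (5 of 5 higher). Most of the tubule sum was Ndae1, at 39.8 and 49.8 against 40.1 and 42.7 RPKM. The diets overlapped on Ndae1, and the other tubule genes were far lower in every library. Haemocyte genes were at 1.53 and 4.73 against 2.47 and 2.55 RPKM (5 of 5 higher), neuron genes at 2.03 to 2.43 RPKM (1 of 3 higher) and testis genes at 0.0211 to 0.330 RPKM (2 of 5 higher), with aly and Mst84Da at 0. The part of these differences in the results was not tested, and the medians of the gene groups are also given without the no-manganese library C.

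Nearly every nuclear complex I gene expressed in the gut was slightly higher without manganese. Of the 40 genes, 33 reached a mean of 1 RPKM over the 4 libraries and were tested, and 32 of these were higher without manganese and 1 lower. Among all 7556 genes tested, 56.4% were higher. The median log2 fold change, no manganese minus 5 ppm on the scale of log2(RPKM + 1), was 0.26 over the 33 genes, a 1.20-fold difference, and 0.02 over all genes tested. Of the 33 genes, 29 had both no-manganese libraries above both 5 ppm libraries, a pattern shown by 21.7% of all genes tested.

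No member passed the test singly. With limma and Benjamini-Hochberg adjustment over all genes tested, 0 of 33 members had an adjusted p under 0.05, as did 0% of all genes (0 members also with voom on recovered reads), and the smallest adjusted p of a member was 0.776. At an unadjusted p under 0.05, 13 of the 33 members were higher and 0 lower, against 2.89% of all genes that were higher at that level. The count of 13 was lower when any library of either diet was left out, in fits with a lone library in that diet. The number of higher members held between 31 and 32 of 33 when any of these libraries was left out, with a median between 0.24 and 0.28. Without the no-manganese library C, which held the ovary RNA, 31 of 33 were higher and the median was 0.24.

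The libraries of each diet lay together on these genes. The median deviation from each gene's own mean over the 4 libraries was 0.11 in library B and 0.16 in library C without manganese. In the 5 ppm libraries B and C it was -0.11 and -0.15. Set against each other in pairs, the no-manganese libraries were above the 5 ppm libraries by a median of 0.22 to 0.31 on the log2 scale in all 4 pairings, with 30 to 32 of the 33 genes higher. Within a diet, library B differed from library C by a median of -0.05 without manganese and 0.05 with it. The summed RPKM of all 40 genes made up 0.513% and 0.552% of all RPKM without manganese, and 0.445% in each 5 ppm library.

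**Figure D1:**
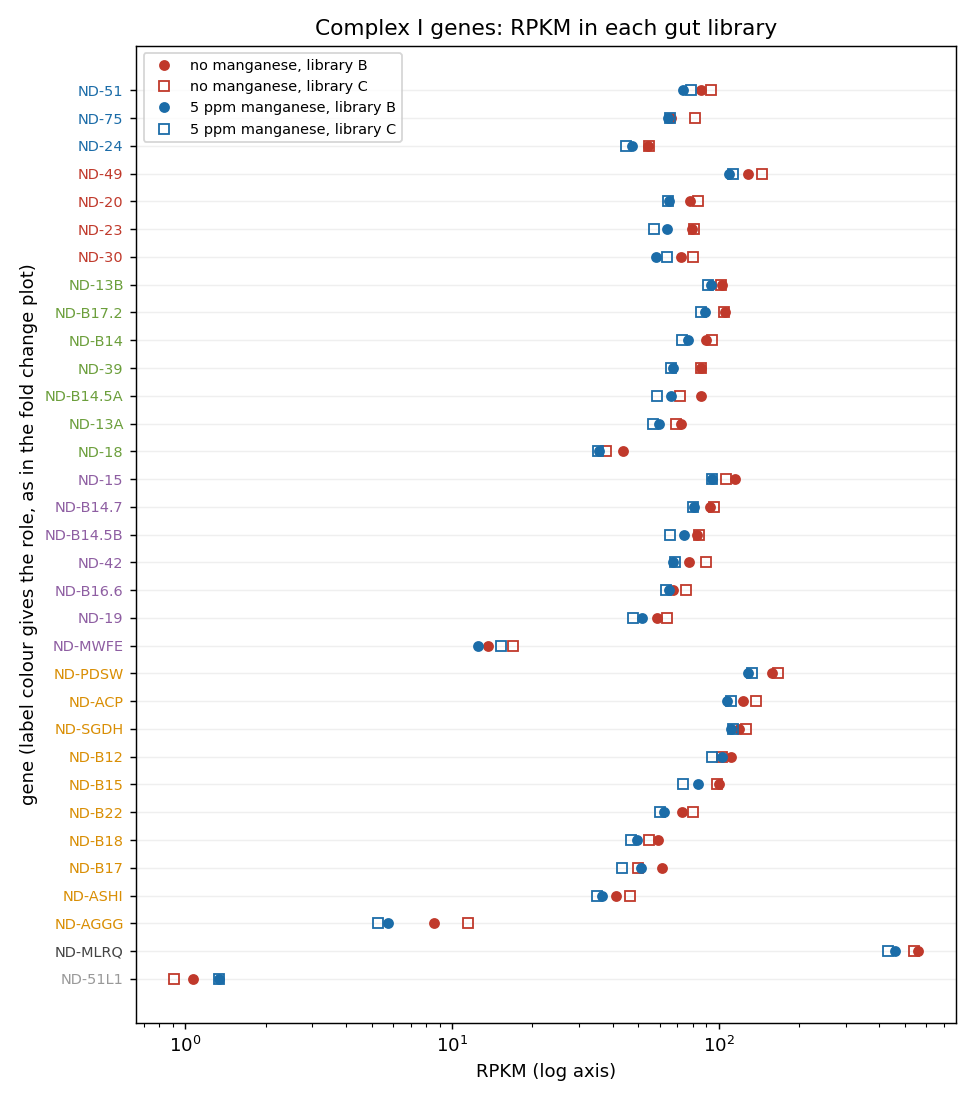
RPKM (log axis) of the 33 tested complex I genes, 1 row per gene, with filled circles for library B and open squares for library C of each diet. In 29 rows both no-manganese points (red) lie to the right of both 5 ppm points (blue), and ND-51L1 is the 1 row with the reverse order.

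The electron entry end of the matrix arm is formed by ND-51, which binds NADH and the flavin in the mammalian enzyme, with the iron-sulfur subunits ND-24 and ND-75. ND-51 had 85.8 and 93.4 RPKM in libraries B and C without manganese and 73.7 and 78.4 RPKM in libraries B and C at 5 ppm. Its log2 fold change was 0.23 ± 0.11 SE, and the diets did not overlap. ND-24 stood at 54.5 and 54.9 RPKM without manganese and at 47.3 and 44.9 RPKM with it, a log2 fold change of 0.24 ± 0.09 SE. Its no-manganese libraries were closer to each other than either was to a 5 ppm library. ND-75, the longest of the tested subunit genes with 2634 exon bases, had 66.4 and 81.7 RPKM without manganese and 64.5 and 65.9 RPKM with it. For this gene the no-manganese library C stood apart, while library B lay just above the 5 ppm libraries. The log2 fold change of ND-75 was 0.17 ± 0.14 SE, and 0.03 without the no-manganese library C.

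The subunits that carry electrons on to ubiquinone had the highest median of the role groups, at 0.32, against 0.23 for the NADH-oxidising core. Without the no-manganese library C these medians were 0.25 and 0.17, and the highest was then that of the matrix arm accessory subunits at 0.30. The difference between the groups was not tested. ND-49, which lines the quinone site in the mammalian enzyme, had 129 and 146 RPKM without manganese and 110 and 113 RPKM with it (log2 fold change 0.30 ± 0.12 SE). ND-49 lies on chromosome 4 from 568296 to 571554 on the minus strand of dm6 and was the most abundant of the core genes. ND-30, a structural core subunit of the same module, had 72.2 and 80.5 RPKM without manganese against 58.3 and 64.1 RPKM (0.31 ± 0.12 SE). ND-20, which holds the last iron-sulfur cluster before the quinone in mammals, had 78.4 and 84.0 RPKM against 65.3 and 64.5 RPKM (0.32 ± 0.10 SE, limma adjusted p = 0.802). ND-23, an iron-sulfur subunit with ferredoxin-like domains, had 79.3 and 80.8 RPKM without manganese and 64.1 and 57.2 RPKM with it. Its log2 fold change of 0.40 ± 0.11 SE was the second highest of all tested members. In each of these 4 genes both no-manganese libraries were above both 5 ppm libraries, and the no-manganese library C was the highest of the 4 libraries.

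Accessory subunits of the matrix arm support and stabilise that core. Of the 8 genes in this group, 7 were tested. Of these, 7 of 7 were higher without overlap between the diets, against 21.7% of all genes tested. The group's median log2 fold change was 0.28 (0.30 without the no-manganese library C). ND-39, a nucleotide-binding subunit of the short-chain dehydrogenase fold, had 85.8 and 85.5 RPKM without manganese and 67.4 and 66.0 RPKM with it. The libraries of a diet lay close together on this gene. Its log2 fold change was 0.36 ± 0.09 SE (limma adjusted p = 0.802), and only ND-AGGG had a smaller unadjusted p among the members. ND-13A, whose mammalian form binds zinc, was at 70.9 ± 2.13 RPKM (mean ± SD, n = 2) without manganese and 58.4 ± 2.17 RPKM with it. ND-18, needed for a late step of assembly in mammals, was at 40.8 ± 4.32 RPKM and 35.4 ± 0.183 RPKM. Over the 7 genes the log2 fold changes ran from 0.16 for ND-13B to 0.36 for ND-39.

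The untested gene of that group was ND-B8, whose mammalian form is a small matrix arm subunit with a thioredoxin-like fold. It had 2 and 0 reads in libraries B and C without manganese and 1 read in each 5 ppm library, that is 0 to 0.166 RPKM. The other 7 genes of the group were at means of 38.1 to 97.4 RPKM. The gene ND-B8 (2L, 4454626 to 4455207, plus strand of dm6) overlaps another gene, and 15.4% of its 460 exon bases lie under exons of Gs1l on the opposite strand. Whether the counting left out reads of ND-B8 is not known, so these values are not read as its expression level, and no comparison of the diets can be made at this depth.

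Accessory subunits of the proximal membrane arm sit where the membrane arm meets the matrix arm. Of the 7 genes, 7 were higher without manganese and 6 without overlap (56.4% and 21.7% of all genes tested). The group's median was 0.23. Leaving out library C of that diet gave 6 higher genes and a median of 0.21. ND-42, a member of the nucleoside kinase family, had 77.2 and 89.8 RPKM without manganese and 67.6 and 68.9 RPKM with it, a log2 fold change of 0.28 ± 0.12 SE. ND-19, a twin-cysteine protein facing the intermembrane space, had the highest fold change of the group at 0.30 ± 0.11 SE. ND-B16.6, the counterpart of mammalian GRIM-19, had 71.3 ± 5.56 RPKM without manganese and 64.2 ± 1.46 RPKM with it (0.15 ± 0.11 SE). The exception to the separation of the diets was ND-MWFE, a small single-pass membrane subunit, with 13.7 and 16.97 RPKM without manganese and 12.6 and 15.3 RPKM with it. For ND-MWFE both C libraries were above both B libraries, and its log2 fold change of 0.13 ± 0.16 SE was -0.019 without the no-manganese library C and -0.0057 without the 5 ppm library B. Exons of Nrk on the same strand cover 15.2% of its exon bases and exons of TppII on the opposite strand 19.8%, so its reads cannot be fully told apart from theirs. How shared reads were assigned, and with which strand setting, is not stated in the sources used here.

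Accessory subunits of the distal membrane arm surround the outer proton pumps. Of the 11 genes, 10 were tested, 10 were higher without manganese and 8 of them without overlap (56.4% and 21.7% of all genes tested). The group's median was 0.27 (0.26 without the no-manganese library C). ND-AGGG, a small subunit of this arm, had the largest fold change of all tested members. It had 8.53 and 11.5 RPKM in libraries B and C without manganese, from 166 and 225 reads, and 5.78 and 5.27 RPKM in libraries B and C at 5 ppm, from 105 and 110 reads. The lower no-manganese library was thus still well above both 5 ppm libraries, and the means differed 1.81-fold. The log2 fold change of ND-AGGG was 0.74 ± 0.16 SE (limma, unadjusted p = 0.00749, adjusted p = 0.776), and it ran from 0.55 to 0.94 with 1 library left out. Its locus (3L, 24976254 to 24977118, plus strand) has 745 exon bases, none of them shared with another annotated gene. At a mean of 7.76 RPKM it was also the lowest of the tested genes other than ND-51L1.

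Other genes of the distal arm showed differences near those of the rest of the enzyme. ND-B15 had 99.998 and 98.6 RPKM without manganese and 83.4 and 73.7 RPKM with it (log2 fold change 0.34 ± 0.11 SE), the fourth highest of the members. ND-PDSW, the most abundant gene of this arm and another twin-cysteine protein, had 159 and 167 RPKM without manganese and 129 and 134 RPKM with it (0.31 ± 0.10 SE). ND-ACP, the mitochondrial acyl carrier protein that also serves fatty acid and iron-sulfur cluster synthesis, had 123 and 138 RPKM against 107 and 111 RPKM (0.25 ± 0.11 SE). These 3 genes kept the diets apart. ND-SGDH and ND-B12, both membrane subunits, had the smallest differences of the arm. ND-SGDH had 119 and 127 RPKM without manganese and 111 and 113 RPKM with it (0.13 ± 0.10 SE). ND-B12 had 111 and 103 RPKM without manganese and 103 and 94.2 RPKM with it (0.11 ± 0.11 SE). For ND-B12 the no-manganese library C and the 5 ppm library B lay at about the same level, and in ND-B17 (61.2 and 49.999 against 51.1 and 43.5 RPKM) the diets overlapped as well.

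ND-MNLL, the remaining gene of this arm, is listed at 0 in all 4 libraries. Its 720 exon bases on chromosome X, from 7893053 to 7893798 on the minus strand, are shared in full with CG45089 on the same strand. CG45089 is likewise listed at 0 in all libraries, so no level can be read for this locus. NP15.6, named in RefSeq's synonyms as the NDUFB11 gene and so a distal arm subunit without an ND- symbol, was looked up after the other values were seen. It had 134 and 133 RPKM without manganese and 118 and 110 RPKM with it (log2 fold change 0.22 ± 0.10 SE), within the range of the members.

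ND-MLRQ, whose mammalian form was first assigned to complex I and is now placed in complex IV, was the most abundant gene of the set. It had 560 and 541 RPKM in libraries B and C without manganese and 458 and 433 RPKM in libraries B and C at 5 ppm. The diets did not overlap, and the log2 fold change of 0.30 ± 0.12 SE lay among those of the core subunits. The next most abundant members, ND-PDSW and ND-49, had means of 147 and 124 RPKM.

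Duplicate copies of respiratory chain genes in Drosophila are often genes of the testis, and 6 members carry a symbol of this kind. ND-51L1, a copy of ND-51, was the 1 member tested with a lower value without manganese. It had 1.07 and 0.905 RPKM without manganese, from 60 and 51 reads, against 1.34 and 1.33 RPKM at 5 ppm, from 70 and 80 reads (log2 fold change -0.23 ± 0.15 SE, limma adjusted p = 0.822). The diets did not overlap, but it stood just above the minimum level tested. ND-49L had 2 and 5 reads in the no-manganese pair of libraries and 10 and 9 reads in the 5 ppm pair, and ND-51L2 had 0 reads in both no-manganese libraries and 3 in each 5 ppm library. These 2 copies were far below the level tested, and ND-49 and ND-51 had means of 124 and 82.8 RPKM. ND-24L, ND-20L and ND-B14.5AL are listed at 0 in all 4 libraries.

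**Figure D2:**
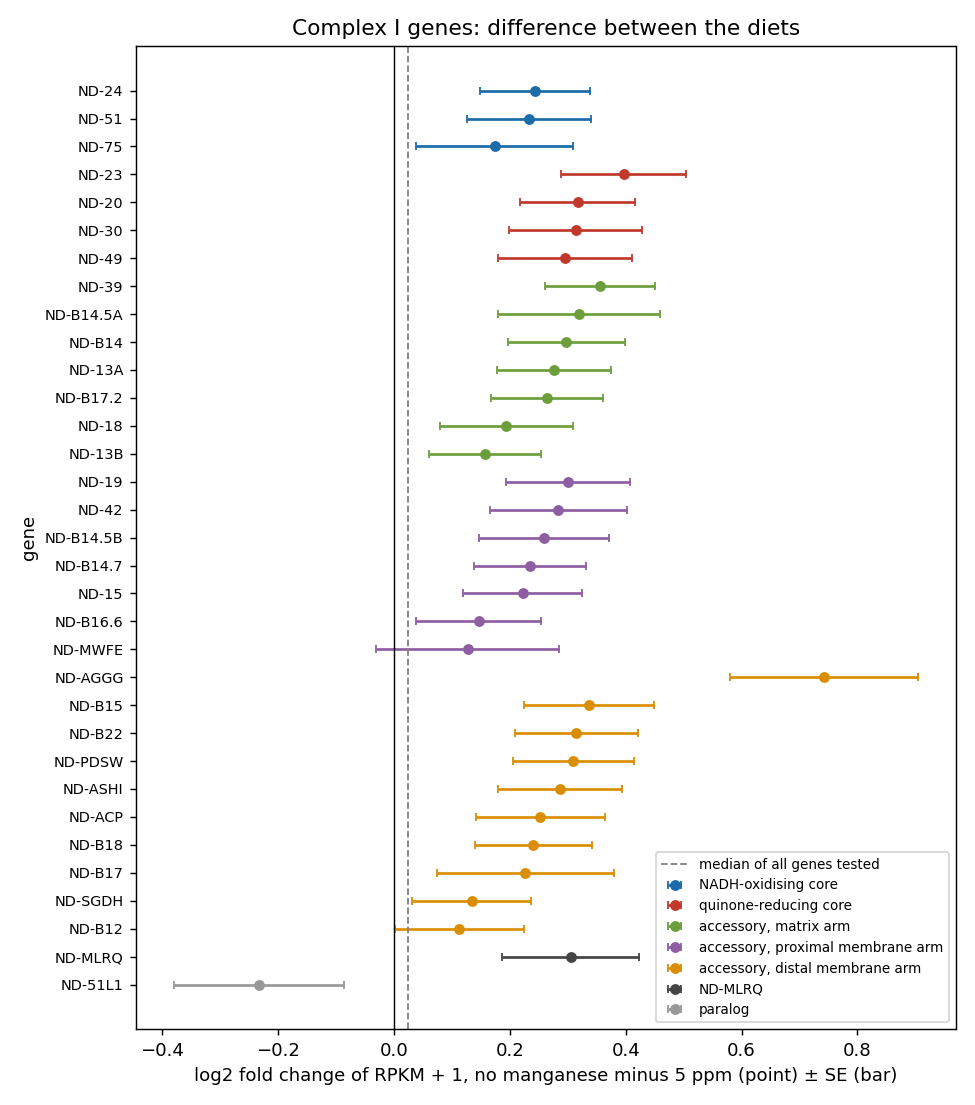
Log2 fold change (no manganese minus 5 ppm, on log2(RPKM + 1)) of the 33 tested genes with its standard error from limma, coloured by place in the enzyme, with the median of all genes tested as a dashed line. Of the 32 genes other than the paralog ND-51L1, 31 lie between 0.1 and 0.4 and ND-AGGG lies at 0.74.

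The differences were alike in size across genes of different place, level and length. Leaving ND-51L1 aside, 31 of 32 log2 fold changes lay between 0.1 and 0.4, with standard errors from 0.09 to 0.16. The levels spanned 7.76 to 498 RPKM in these genes, with 23 of 32 between 60 and 200 RPKM. The order of the levels was nearly the same in every library, the lowest Spearman's rho between a pair of libraries being 0.96 across the 32 genes. Fold change did not run with level (Spearman's rho -0.02 across 32 genes, which share libraries and depth). The genes are scattered over the genome, with 8 on 2L, 8 on X, 7 on 3L, 6 on 2R, 2 on 3R and 1 on chromosome 4, and the median log2 fold change by arm ran from 0.24 on X to 0.34 on 3R. Exons of genes on the opposite strand overlap some members. In the 17 members without such overlap the median was 0.28, and in the 6 members with more than 10% of their exon bases overlapped it was 0.25.

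Length moved with the difference between the diets over the genome as a whole. Complex I genes are short, with a median of 871 exon bases against 2024 for all genes tested. Across the 7506 tested genes that have exon lengths, log2 fold change and length had a Spearman's rho of -0.27. In the length bins with medians of 832 and 1029 bases, the median log2 fold change of all genes was 0.09 and 0.08, below the members' 0.26. When the trend with length was removed from each library, 32 of 33 members were still above 0, with a median of 0.18. ND-B12 was among them at 1.6e-06, with no difference left, and ND-MWFE was at 0.035. At an unadjusted p under 0.05 there were 3 members, against 2.03% of all genes that were higher at that level. Within the set, rho between fold change and length was -0.10 over the 32 genes other than ND-51L1. The libraries of a diet also differed with length in these genes, with rho of -0.35 for library B minus C without manganese and -0.41 with manganese. Across the 7506 genes, rho for library B minus C was -0.23 without manganese, near the -0.27 between the diets, and -0.046 with manganese. Of the longest subunit genes, ND-75, ND-42, ND-49 and ND-51 were higher in library C than in library B of each diet, while ND-39, of about the length of ND-42, was slightly higher in library B of each diet. What the trend with length comes from was not tested.

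**Figure D3:**
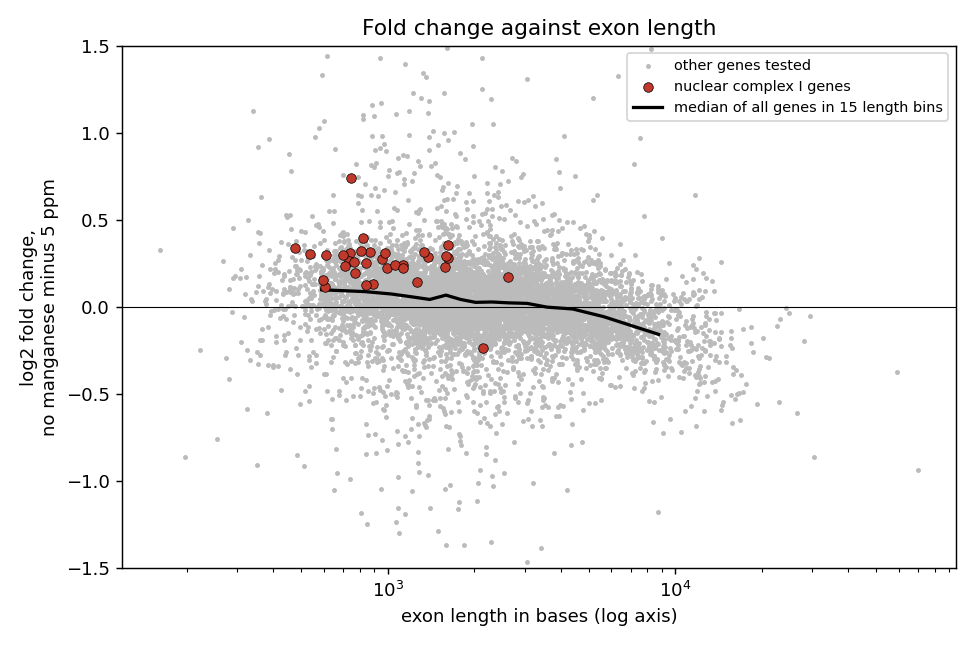
Log2 fold change against exon length (log axis) for the genes tested, with complex I genes in red and the median of all genes in 15 length bins as a black line. All red points but ND-51L1 lie above 0, and the line falls from 0.10 to -0.16 from the shortest to the longest bin, while 34 genes lie more than 1.5 from 0 and are not drawn.

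The subunits encoded in the mitochondrial genome varied more between libraries of a diet, the pooled SD of their library medians being 0.323 on the log2 scale against 0.0337 for the nuclear genes. Of 7 mt:ND genes, 6 had a higher mean without manganese and 2 did so without overlap, which is near the 21.7% of all genes tested that did so. Their median log2 fold change was 0.37, and whether they differ from the nuclear genes was not tested. mt:ND1, a membrane subunit next to the quinone site, had 1422 and 1629 RPKM in libraries B and C without manganese and 1156 and 1204 RPKM in libraries B and C at 5 ppm. mt:ND4, a pump subunit of the distal arm, had 843 and 1122 RPKM without manganese and 631 and 747 RPKM with it. In both genes the lower no-manganese library was above both 5 ppm libraries. In the other mt:ND genes the 5 ppm library C reached or passed a no-manganese library. mt:ND5, the outermost pump subunit, had 709 and 844 RPKM without manganese and 502 and 712 RPKM with it. mt:ND3, at the joint of the arms, had 627 and 1094 RPKM against 421 and 894 RPKM. In mt:ND3 the libraries of the same diet were further apart than the diets' means, and in both genes library C was the higher of each diet. mt:ND2 had 122 and 169 RPKM against 104 and 148 RPKM, and mt:ND4L 100.1 and 97.0 RPKM against 65.6 and 117 RPKM. mt:ND6 was the 1 gene with a lower mean without manganese, at 56.3 and 83.0 RPKM against 49.8 and 114 RPKM (log2 fold change -0.14 ± 0.44 SE). The no-manganese library B was above the 5 ppm library C in 2 of the 7 genes. Without the 5 ppm library B the median of the 7 genes was -0.049 and 3 were higher. Without the 5 ppm library C the median was 0.58 and 7 were higher, and without the no-manganese library C it was 0.19 and 5 were higher.

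The nuclear genes of complexes II to V, listed for comparison, were higher without manganese too. The list of 34 genes includes Cyt-c-p, the gene of cytochrome c, and leaves out copies whose symbols end in L or L2. The complex I set keeps such copies. Of the 34 genes, 33 were tested. Of these, 33 of 33 were higher without overlap, against 21.7% of all genes tested, with a median of 0.29. Without the no-manganese library C, 33 of 33 were higher with a median of 0.26. Their log2 fold changes ran from 0.18 for UQCR-11 and 0.20 for cype to 0.36 for SdhD and 0.37 for ATPsynbeta. UQCR-11L, a copy left out of this list, had a mean of 3.95 RPKM and a log2 fold change of -0.26 ± 0.26 SE. Values of other such copies are not given here, and the ranges of the lists are not set against each other. The tested genes of the list were more abundant, with a median of 182 RPKM against 73.0 RPKM over the 33 complex I genes. Of the 6 genes listed for other entry points of electrons to ubiquinone, 6 had a higher mean (56.4% of all genes tested). The median of these 6 genes was 0.24. SdhA, SdhB, SdhC and SdhD among them are already counted in complexes II to V, and Gpo1 and Dhod are the genes added. SdhA, the flavoprotein of complex II, had 66.8 and 81.1 RPKM without manganese and 62.6 and 61.1 RPKM with it. Gpo1, the mitochondrial glycerol phosphate oxidase, had 10.4 and 15.02 RPKM against 9.20 and 12.2 RPKM, and its diets overlapped, as did those of Dhod. Of the citric acid cycle genes Idh3a, Idh3b, Mdh2 and kdn, together with Sod2, 5 of 5 were higher, against 56.4% of all genes tested. The median of these 5 genes was 0.21, which is the value of kdn, and Idh3b overlapped between the diets. Without the no-manganese library C this median was 0.09, without its library B 0.32, and the median of the 6 entry genes was 0.15 without the no-manganese library C. Sod2, the manganese superoxide dismutase, had 80.0 and 78.3 RPKM without manganese and 60.5 and 60.9 RPKM with it (0.38 ± 0.09 SE, limma adjusted p = 0.786). None of these genes passed the limma test over all genes.

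The factors that assemble complex I overlapped between the diets. CIA30, sicily, ECSIT and Nubpl are not part of the finished enzyme and act while it is built. Of these 4 genes 4 had a higher mean without manganese and 0 were without overlap, with a median log2 fold change of 0.07. Among all genes tested, 56.4% were higher and 21.7% were higher without overlap, while 4770 of 7556 overlapped. With 1 library left out 3 of the 4 factors were higher. Their median was 0.02 without the no-manganese library C and 0.11 without the 5 ppm library B. CIA30 had 16.9 and 18.9 RPKM without manganese and 17.17 and 16.4 RPKM with it (log2 fold change 0.09 ± 0.10 SE). Nubpl, which delivers iron-sulfur clusters to the enzyme in human cells, had 11.2 and 9.18 RPKM against 9.86 and 8.82 RPKM (0.11 ± 0.13 SE). sicily had 5.58 and 6.28 RPKM against 5.27 and 6.29 RPKM, and ECSIT 4.38 and 4.54 RPKM against 4.47 and 4.08 RPKM. In all 4 genes a library of 1 diet lay within the range of the other diet. Whether the assembly factors differ from the subunits in their response was not tested, and 4 other names on the list matched no symbol in the table. With the length trend removed, 2 of the 4 were higher and their median was 0.0049.

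**Figure D4:**
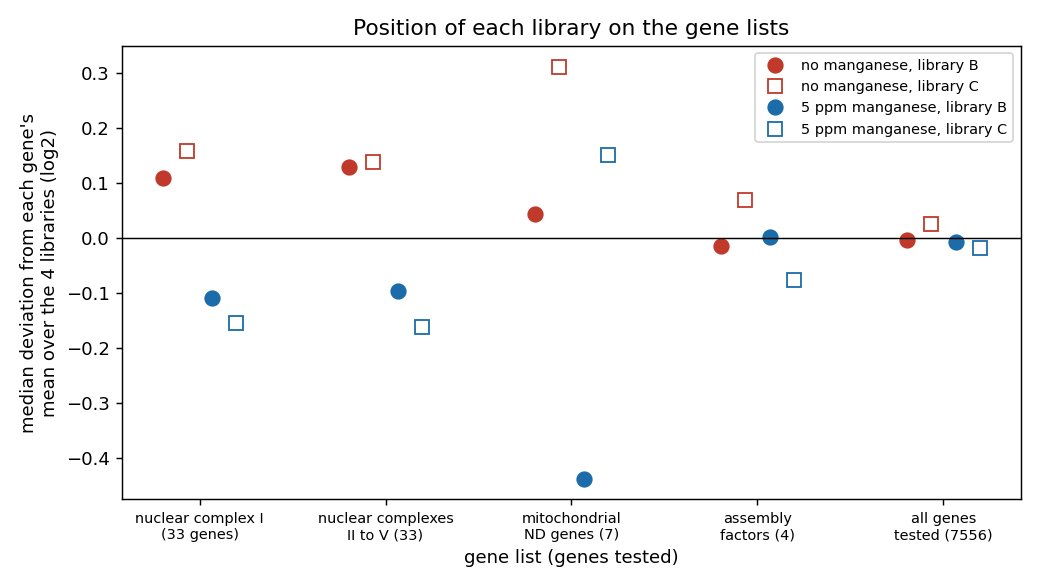
Median, over the tested genes of each list, of a library's deviation from the gene's mean over the 4 libraries (log2 of RPKM + 1). On nuclear complex I and complexes II to V both no-manganese libraries lie above 0 and both 5 ppm libraries below it, while on the mitochondrial ND genes the 5 ppm library C lies above the no-manganese library B, and on the assembly factors and all genes every library is within 0.1 of 0.

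Scaling of the libraries had little bearing on the direction. With library medians set equal, quantile normalization or a trimmed mean of M values, 32 of 33 members were higher and the median ran from 0.24 to 0.25, while the median of all genes ran from 0.00097 to 0.0096. Of the processing choices tried, removal of the length trend lowered the median of the members most.

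**Figure D5:**
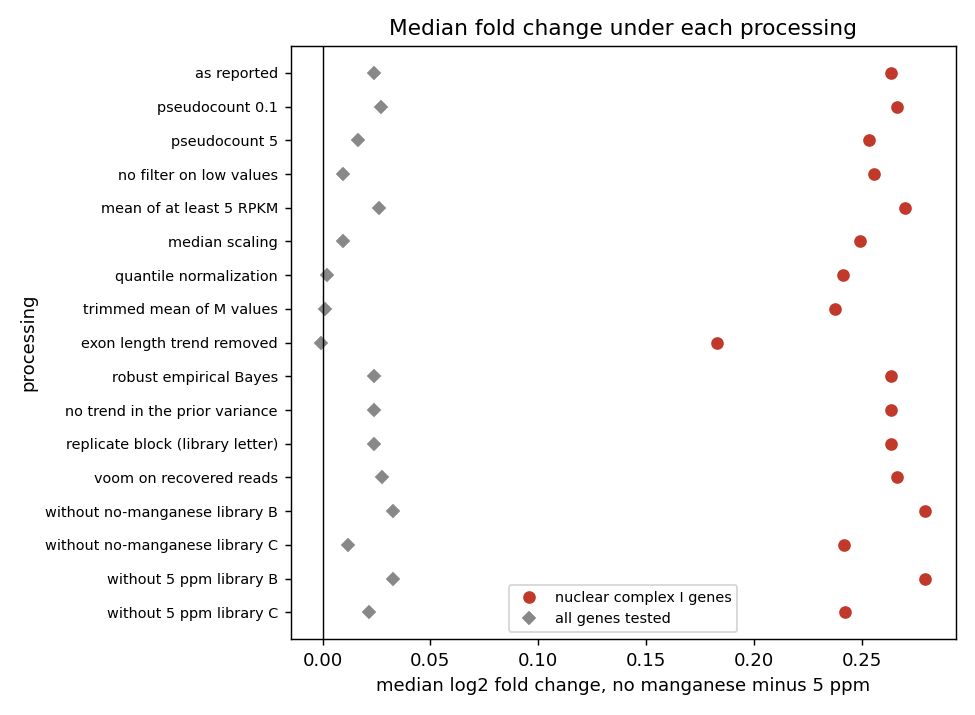
Median log2 fold change of the tested complex I genes (red) and of all genes tested (grey) under each processing of the table. The red points lie between 0.18, with the exon length trend removed, and 0.28, and the grey points between -0.00080 and 0.033.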

How the data were processed

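The authors deposited 1 table of RPKM values per gene, with 4 libraries in columns. STAR 2.5.2b, DESeq2 and the build dm6 appear, with no role, in the submitters' processing notes. Which program counted reads, with which annotation and strand setting, is not stated in the sources used here. RPKM depends on the gene length and library total used. Column names give the diet and a letter, so columns were assigned to a diet and not to a numbered sample.

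Symbols came from the FlyBase identifiers (13852 of 13932 matched) and exon lengths and positions from the Ensembl 115 annotation in dm6 coordinates. Reads were recovered from RPKM times exon length, and below 20 reads 84.6% to 85.6% of the values were whole numbers to within 0.02. The 7556 genes whose mean reached 1 RPKM were tested with limma 3.58.1 (R 4.3.3), log2(RPKM + 1) being fitted with a trended prior variance and 2 residual degrees of freedom, 2-sided, adjusted by Benjamini-Hochberg at 0.05. The pseudocount understates the change of low genes. With 2 libraries in each diet the smallest exact permutation p is 0.333, and no such test was made. The fit was also run on simulated reads, with planted changes larger than any difference of the members. That run has no bearing on differences of their size. No values were identical over the tested genes between the no-manganese libraries, and 2 were between the 5 ppm libraries.

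The members, the lists and the tests were chosen with earlier results of these data known, so no test was made over the list. Values in each library are given for the core subunits, the members with the smallest p, the largest and smallest fold changes and the highest levels, and those under the filter; others were given as ranges or as examples. Other members named as examples, and NP15.6 and CG45089, were added after their values were seen. Protein and promoter sequences were not used here. The processing was varied by pseudocount (0.1, 5), filter (none, mean of 5 RPKM), 3 scalings, removal of the length trend (loess), robust or untrended priors, the letters as a block, voom on recovered reads, and each library left out.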

Additional observations from a re-analysis of the deposited data

How the results depend on the processing

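Over 33 members and 16 alternatives, the log2 fold change of a member kept its sign in 525 of 527 cases. The exceptions were ND-MWFE without the no-manganese library C (-0.019) and without the 5 ppm library B (-0.0057), with 0.27 as its highest value. ND-B12 was counted as keeping its sign at 1.6e-06 with the length trend removed. No member passed an adjusted p of 0.05 under any alternative. The median over the members moved by more than the spread between libraries only when the exon length trend was removed (0.18 against 0.26). The number of members at an unadjusted p under 0.05 was 13 of 33, and 2.89% of all genes were higher at that level. It was 20 of 36 without a filter (2.63% of all genes higher) and 8 of 33 with a trimmed mean of M values (2.29%). With the length trend removed it was 3 of 33 (2.03%), and with 1 library left out it was also under 13. The cause was not tested. A fit with 1 library less has fewer samples, and its lone library is taken to vary like those of the other diet. With the letters as a replicate block, 18 members were at that level, against 5.90% of all genes that were higher, and the smallest adjusted p of a member was 0.287. The B libraries of both diets deviated together (correlation 0.34 over all genes tested and 0.51 over the 33 members), but with 2 pairs and no word in the labels the letters are not known to pair the libraries.

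With the length trend removed, the assembly factors sicily and ECSIT were at -0.019 and -0.0050. With 1 library left out, the lowest and highest values were -0.074 and 0.14 for sicily (-0.038 without the no-manganese library C), -0.0025 and 0.10 for ECSIT, -0.020 and 0.24 for Nubpl, -0.029 and 0.47 for Gpo1, -0.0077 and 0.31 for Dhod, and -0.022 and 0.26 for Idh3b. Of the mitochondrial genes, mt:ND6 ran from -0.73 to 0.45, mt:ND3 from -0.11 to 0.97, mt:ND2 from -0.049 to 0.46 (-0.031 without the no-manganese library C) and mt:ND4L from -0.24 to 0.58, and the median of the 7 mt:ND genes from -0.049 to 0.58. Depth limits the statements on ND-B8, ND-49L and ND-51L2, which had at most 10 reads in a library.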
